A study of Arabidopsis thaliana and Oryza sativa and Cucumis sativus with 30 samples.

Results

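COBL9 hair cells were set against wild-type WER epidermis, that is, 3 libraries of cells sorted from Arabidopsis roots by the reporter COBL9::GFP against 3 libraries of cells sorted by WER::GFP in the wild type. They are 6 of the 30 libraries of a series in 10 groups, which also holds rhd6 epidermis, rice EXPA30::GFP hair cells and sieved root hairs of 6 species. All 6 came from variety Columbia, from pooled root tips of seedlings grown at 22 °C under constant light for 4 to 5 days, digested to protoplasts and sorted for GFP. Both groups carry a GFP transgene in an otherwise wild-type background, and each population is defined by what its promoter marks. The hair cell values are FPKM (fragments scaled by transcript length and library total) for 33550 genes, and the epidermal values are normalized CPM (read counts scaled to the library total) for 17628 genes. All 17628 stand in both tables, and 17608 of them have a transcript length in the reference and were ranked, while 20 have none. A further 15922 genes stand only in the hair cell table, 323 of them with a mean of 5 FPKM or more, and were not compared.

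Root hairs are tubular outgrowths of epidermal cells that enlarge the surface of the root for uptake of water and ions. In Arabidopsis, hair cells alternate with files of non-hair cells, which WEREWOLF (WER, a MYB factor) specifies together with GLABRA3 and GLABRA2, while CAPRICE moves into hair cells and blocks that program. RHD6 and related basic helix-loop-helix (bHLH) factors then start the hair, and wall proteins, vesicle traffic, actin and reactive oxygen carry its tip growth. COBL9 is a COBRA-like GPI-anchored protein needed for hair growth, and its promoter is active in hair cells. The WER promoter is active in the young epidermis of hair and non-hair files and in the lateral root cap, so WER epidermis also holds hair cells, and the comparison asks which genes rank higher or lower in hair cells than in the whole epidermis.

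The 2 promoters that define the sorts are shown from 250 bases before to 50 after the annotated start, together with those of one hair gene and one nucleolar gene described further on. They were read 5′ to 3′ on the gene's strand from the RefSeq assembly TAIR10.1, at chr5:19974481-19974780 (minus strand) for COBL9, chr5:4764785-4765084 (minus strand) for WER, chr4:12920492-12920791 (plus strand) for RHS15 and chr1:20986903-20987202 (minus strand) for NOP56. In COBL9 and RHS15, capitals mark the core of the root hair element, and in NOP56 they mark telo boxes and site II elements. WER held no match to the core.
COBL9: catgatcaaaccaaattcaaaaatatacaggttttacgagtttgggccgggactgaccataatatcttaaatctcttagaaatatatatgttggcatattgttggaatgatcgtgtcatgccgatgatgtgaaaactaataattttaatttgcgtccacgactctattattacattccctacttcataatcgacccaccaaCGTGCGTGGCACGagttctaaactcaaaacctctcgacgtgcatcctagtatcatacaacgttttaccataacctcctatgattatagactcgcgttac
WER: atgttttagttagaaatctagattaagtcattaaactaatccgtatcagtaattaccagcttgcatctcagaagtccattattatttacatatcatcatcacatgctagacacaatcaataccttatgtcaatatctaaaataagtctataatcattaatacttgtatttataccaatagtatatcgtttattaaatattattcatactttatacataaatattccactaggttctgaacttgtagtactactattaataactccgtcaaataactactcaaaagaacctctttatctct
RHS15: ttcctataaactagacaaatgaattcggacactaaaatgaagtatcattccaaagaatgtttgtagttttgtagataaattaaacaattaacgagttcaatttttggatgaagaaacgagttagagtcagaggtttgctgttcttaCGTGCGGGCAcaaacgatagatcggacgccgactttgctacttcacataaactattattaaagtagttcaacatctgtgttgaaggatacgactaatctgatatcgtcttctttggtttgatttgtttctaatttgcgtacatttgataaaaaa
NOP56: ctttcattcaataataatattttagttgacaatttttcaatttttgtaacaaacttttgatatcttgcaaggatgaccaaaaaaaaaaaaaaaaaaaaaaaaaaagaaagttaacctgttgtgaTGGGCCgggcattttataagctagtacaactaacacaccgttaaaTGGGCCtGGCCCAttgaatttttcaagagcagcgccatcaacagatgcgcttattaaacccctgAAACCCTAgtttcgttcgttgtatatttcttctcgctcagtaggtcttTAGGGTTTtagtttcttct

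The units differ and the tables were normalized separately, so no test was made between them, and table, unit and cell population cannot be told apart. Genes were compared by percentile among the 17608 shared genes, where 100 is the highest. A gene was called when its group mean ranked at least 20 points higher or lower in hair cells, both against CPM as deposited and against CPM per kb of the longest transcript, with every hair cell library above, or below, every epidermal one on both scales. A ratio was also taken, as the log2 of a rescaled TPM, plus 1, in hair cells over epidermis. Rescaled TPM is the FPKM, or the CPM per kb, scaled so that the 17608 shared genes sum to 1000000 in each library, and sums over lists below are on this scale. The median ratio over all genes was -0.33, and ratios below are given relative to that median unless said otherwise. Ranks saturate for genes near the top of both tables, and there the ratio carries the comparison. Values of single libraries are given in the order COBL9GFP_10021, COBL9GFP_10022 and COBL9GFP_9521 for hair cells, and WT_WERGFP_8955, WT_WERGFP_9483 and WT_WERGFP_9489 for epidermis. In bulk samples, fewer cells of a type and less RNA per cell cannot be told apart.

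Libraries within a population differed in their hair and root cap genes. Reads over the listed genes were recovered from the epidermal CPM by taking the smallest value above 0 as 1 read. They came to 10562137 (library WT_WERGFP_8955), 23110648 (WT_WERGFP_9483) and 22117637 (WT_WERGFP_9489). The depth of the hair cell libraries is unknown. Over genes, Spearman's rho was 0.905 to 0.983 within hair cells, 0.963 to 0.989 within epidermis and 0.815 to 0.893 between them. Hair cell library COBL9GFP_10021 stood apart. Its 4 root cap markers (SMB, FEZ, BRN1 and BRN2) summed to 42.8 rescaled TPM, against 651 in library COBL9GFP_10022 and 349 in COBL9GFP_9521, and to between 193 and 248 in the epidermal libraries. Its 7 hair bHLH factors summed to 1230 rescaled TPM, against 306 in COBL9GFP_10022 and 565 in COBL9GFP_9521, and to between 485 and 671 in epidermis. Of 17608 genes, 605 (3.44%) were 4-fold or more lower in COBL9GFP_10021 than the mean of the other hair cell libraries, and 28 were so in COBL9GFP_10022. Among epidermal libraries, WT_WERGFP_9489 had the highest sum for hair wall proteins, 10200 rescaled TPM against 5350 and 5570. The part that cap cells or hair stage played in the results below was not tested, and list medians or counts are given without a library where that moved them by over 1.5 times.

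**Figure D1:**
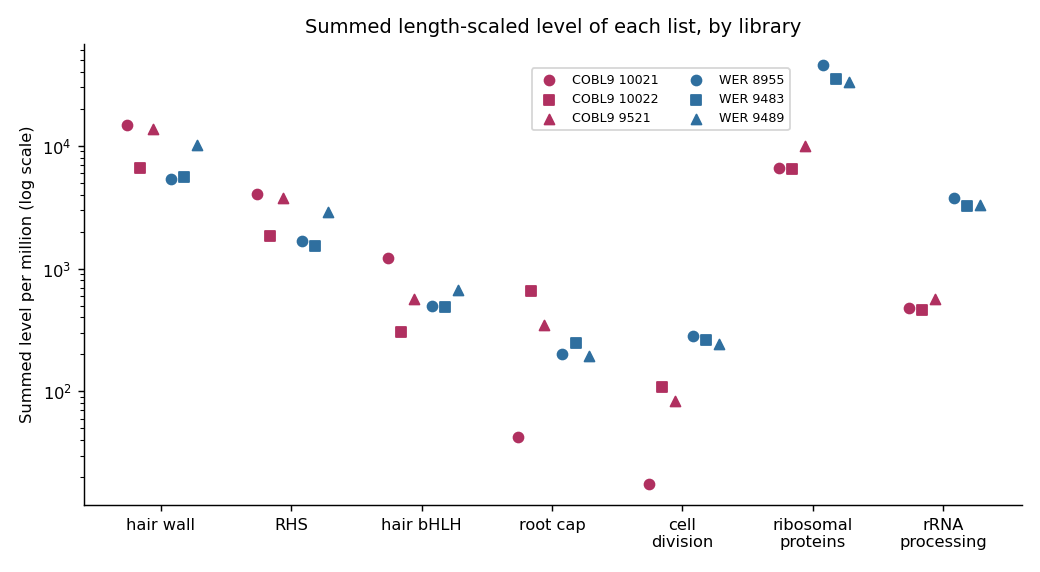
Summed rescaled TPM (length-scaled level per 1000000, log axis) of 7 gene lists in each of the 3 COBL9 hair cell libraries and the 3 WER epidermis libraries, 1 point per library. Root cap genes span 42.8 to 651 rescaled TPM among hair cell libraries, while ribosomal protein and rRNA processing genes lie lower in all 3 hair cell libraries than in all 3 epidermal ones.

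WER ranked lower in COBL9 hair cells and was called, while COBL9 ranked near the top of both tables and was not called. COBL9 (AT5G49270, chromosome 5) had 194, 63.6 and 97.0 FPKM in hair cells, and 95.5, 112 and 253 CPM in epidermis. Its percentile was 93.3 in hair cells and 89.6 in epidermis, a difference of 3.70 points, and the libraries of the groups overlapped. Without library COBL9GFP_10021 the difference was 0.43 points, and without epidermal library WT_WERGFP_9489 it was 8.26 points. WER (AT5G14750, chromosome 5) had 8.26, 17.1 and 14.9 FPKM in hair cells, and 81.0, 59.4 and 61.8 CPM in epidermis. It ranked at percentile 60.2 ± 6.12 in hair cells and 87.5 ± 1.86 in epidermis (SD, n = 3 each), 27.3 points lower, and leaving out any 1 library kept the difference between -29.9 and -23.9 points.

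Of 17608 genes, 566 (3.21%) were called higher in COBL9 hair cells and 974 (5.53%) were called lower. By the ratio, 95 genes (0.54%) were 4-fold or more higher and 1362 (7.74%) 4-fold or more lower before centring, with libraries not overlapping, and 150 and 890 after it. Among the genes with distinct reads described below, the uncentred counts were 27 (0.174%) and 1251 (8.05%). Libraries did not overlap in percentile for 23.8% of all genes upward and 23.9% downward. The calls nearest the threshold were AT5G02890 at 20.06 points and AT3G61610 at -20 points, and the nearest misses were AT1G02300 at 19.98 and BET10 at -19.99 points. The 566 genes had a median transcript of 1194 bases and the 974 one of 1960.5 bases, against 1783 bases over all genes. Rank differences per kb had a Spearman correlation of -0.048 with transcript length across genes, and those on CPM as deposited one of -0.571.

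**Figure D2:**
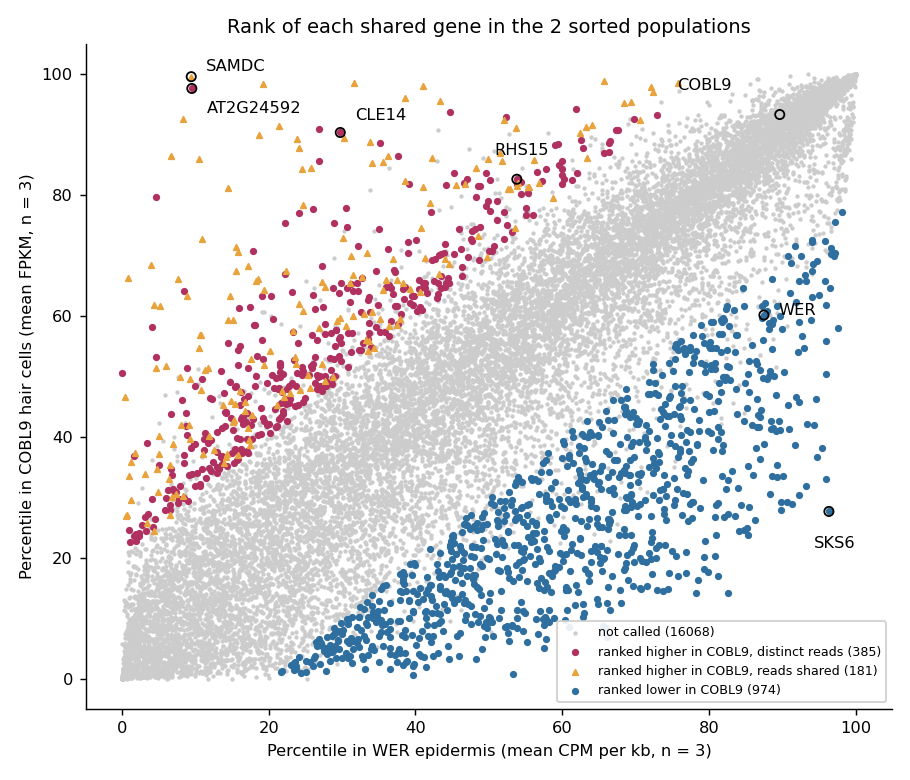
Percentile of each of 17608 shared genes by mean FPKM in COBL9 hair cells (vertical) and by mean CPM per kb in WER epidermis (horizontal), 3 libraries each, with called genes in colour. The 566 genes ranked higher lie above the diagonal, 181 of them with reads that other genes may share (triangles), and the 974 ranked lower lie below it.

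Many of the genes that ranked highest in hair cells had reads that other genes may share. In the hair cell table, 711 genes in 343 groups had exactly the same FPKM as another gene in all 3 libraries, and 190 of these were ranked here. They made up 10.8% of the genes called higher and 0.308% of those called lower, against 1.08% of all ranked genes. Exon overlap of 10% or more with another listed gene was found in 24.7% of the genes called higher and 5.24% of those called lower, against 9.13% of all. Setting aside genes with the same FPKM, with such overlap or with 10% or more of their 50-base words in another gene left 15545 genes. They are called genes with distinct reads here, although the filter can miss read sharing. SAMDC, for example, had 0.0% exon overlap and 0.0% shared words and was set aside by its FPKM alone. Of the 15545 genes, 385 (2.48%) were called higher and 907 (5.83%) lower. The filter thus set aside 32.0% of the higher calls and 6.88% of the lower calls. The sources used here do not say how each table assigned reads of such genes, and the part of read sharing in these differences was not tested.

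SAMDC (AT3G02470), S-adenosylmethionine decarboxylase of polyamine synthesis, had the largest rank difference. It had 853, 1142 and 1072 FPKM in hair cells, the same values as AT3G02468, and 1.53, 4.31 and 1.73 CPM in epidermis, 90.2 points apart. AT4G19400 (a profilin family protein) shared its FPKM with AT4G19410 and stood 84.2 points higher. ACD1 (AT3G44880, pheophorbide a oxygenase of chlorophyll breakdown) shared its FPKM with AT3G44870 and stood 79.1 points higher. AT1G70650, APE1, AT1G01770, AT2G20625, TBL42 and AT3G26430, all among the 12 largest rank differences, also shared their FPKM with another gene, and AT1G71530 overlapped another gene over 99.4% of its exons. The remaining members of these 12, AT2G24592 and AT3G48344, had distinct reads. By ratio, AT1G07590 (a tetratricopeptide protein) had 10331, 4889 and 6576 FPKM in hair cells, equal to those of AT1G07600, and 207, 221 and 323 CPM in epidermis. AT2G46995, AT4G23271, AT3G08520 (a ribosomal L41 gene), PGIP1 (a polygalacturonase inhibitor), AT1G67330 and AT4G13860, with log2 ratios of 5.49, 4.82, 4.81, 4.42, 4.31 and 4.11, had overlapping or repeated sequence too. These values give no level of one gene, and no group of functions is read from them.

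**Figure D3:**
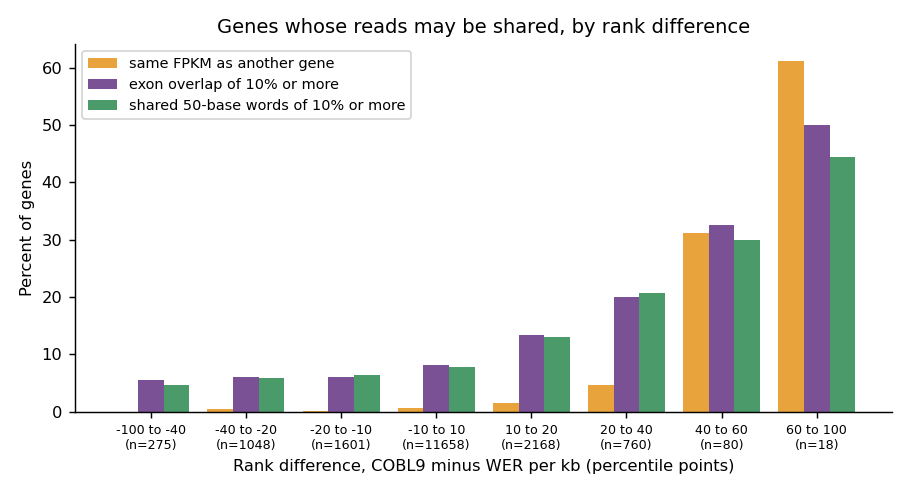
Percent of genes with the same FPKM as another gene, with exon overlap of 10% or more, and with 10% or more of 50-base words in another gene (bars), by rank difference in percentile points, COBL9 hair cells minus WER epidermis. The share with the same FPKM is 0.695% between -10 and 10 points and 61.1% of the 18 genes above 60 points.

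Among genes with distinct reads, the largest rank differences upward were led by an RNA with no annotated protein and several uncharacterized proteins (the 12 largest were chosen after values were seen). AT2G24592, annotated as other RNA, had 188, 306 and 379 FPKM in hair cells, and 0.287, 0.518 and 1.08 CPM in epidermis, from 38 reads in all. It stood 88.1 points higher, and between 85.0 and 92.6 points with any 1 library left out. CLE14 (AT1G63245), a CLE signalling peptide, had 24.6, 138 and 88.3 FPKM in hair cells, and 2.87, 4.27 and 1.87 CPM in epidermis, 60.6 points apart. The hair cell libraries lay above all epidermal ones in both genes, which the call rule requires. AT5G57080, AT3G62450 and AT5G26080 (a proline-rich protein) stood 58.8, 53.4 and 53.0 points higher. AT5G26080 had 17.1, 11.1 and 39.1 FPKM in hair cells and 1.53, 1.42 and 1.78 CPM in epidermis. AT1G67785, uncharacterized, was near the top of both tables at percentiles 99.7 and 91.1, and had a log2 ratio of 4.12.

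Several of these genes were low in library COBL9GFP_10021, the one with few root cap transcripts. UGE3, a UDP-glucose 4-epimerase, had 0.411 FPKM in COBL9GFP_10021, 21.3 in COBL9GFP_10022 and 15.03 in COBL9GFP_9521, and 1.34, 1.42 and 0.609 CPM in epidermis. SAP10, a stress-associated zinc finger protein, had 3.82, 43.4 and 46.8 FPKM in the same order, and 2.20, 3.88 and 1.78 CPM in epidermis. AT1G51035, AT3G48344, AT4G00305 (a RING protein), AT4G18450 (an AP2-type factor) and AT4G11210 (a dirigent protein) had 8.02, 8.41, 4.33, 3.09 and 6.598 FPKM in COBL9GFP_10021, and 131, 54.9, 46.3, 59.5 and 21.4 FPKM in COBL9GFP_10022. Library COBL9GFP_10021 ranked lowest of the hair cell libraries in each of these 7 genes. UGE3, SAP10, AT4G00305 and AT4G18450 had log2 ratios of 3.29, 3.06, 3.04 and 3.00. They were not counted as 4-fold higher, because their hair cell and epidermal libraries overlapped in rescaled TPM, though not in percentile. Of the 385 distinct genes called higher, 26 (6.75%) were 4-fold or more lower in COBL9GFP_10021 than the mean of the other hair cell libraries. BRN1 and BRN2, which act in the root cap, were also lowest in COBL9GFP_10021. They had 14.6, 215 and 112 FPKM and 13.4, 217 and 113 FPKM in COBL9GFP_10021, COBL9GFP_10022 and COBL9GFP_9521. Without library COBL9GFP_10021, the number of genes called higher was 815.

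**Figure D4:**
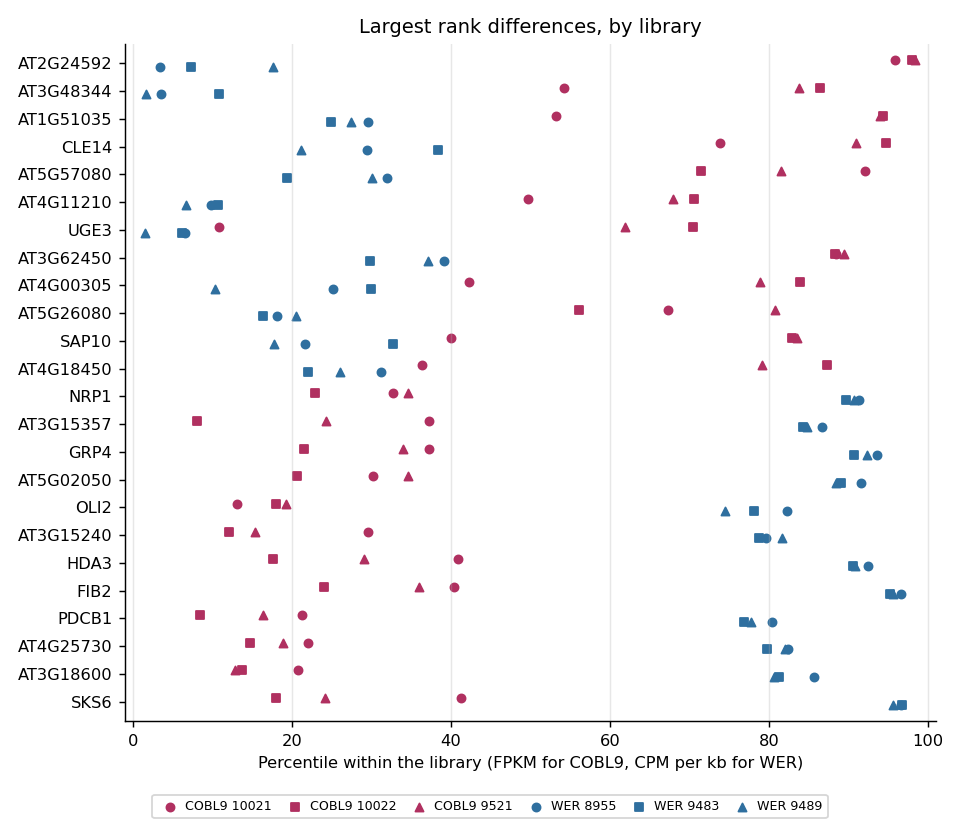
Percentile within each library of the 12 genes with distinct reads that ranked most higher in COBL9 hair cells and the 12 genes that ranked most lower, by FPKM in the 3 COBL9 libraries and CPM per kb in the 3 WER libraries. Symbols of the groups do not overlap in percentile in any of the 24 genes, which the call rule requires. In rescaled TPM the groups do overlap in UGE3, SAP10, AT4G00305 and AT4G18450. Library COBL9GFP_10021 lies left of the other hair cell libraries in UGE3, SAP10 and AT4G18450.

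Genes that ranked lower in hair cells included many for ribosome assembly. SKS6 (AT1G41830), a SKU5-like multicopper oxidase homologue, had the largest difference, with 4.11, 1.36 and 2.32 FPKM in hair cells and 384, 370 and 310 CPM in epidermis. It ranked at 27.7 ± 12.1 in hair cells and 96.3 ± 0.60 in epidermis (SD, n = 3 each), 68.7 points lower. FIB2 (AT4G25630), a fibrillarin that methylates ribosomal RNA, had 3.89, 2.096 and 4.50 FPKM in hair cells and 251, 174 and 194 CPM in epidermis, 62.8 points lower. OLI2, an RNA methyltransferase, had 0.526, 1.35 and 1.68 FPKM in hair cells and 95.4, 74.997 and 64.7 CPM in epidermis, 62.2 points lower. No hair cell library reached an epidermal library in percentile in these 3 genes, which the call rule requires. The others among the 12 largest downward differences were AT3G18600 (a P-loop nucleoside triphosphate hydrolase), AT4G25730 (an FtsJ-like methyltransferase), PDCB1 (which binds callose at plasmodesmata), HDA3 (a nucleolar histone deacetylase), AT3G15240, AT5G02050, GRP4 (a glycine-rich RNA-binding protein), AT3G15357 and NRP1 (a histone chaperone). Their differences ran from -68.4 points in AT3G18600 to -61.3 in NRP1, and HDA3 and NRP1 overlap another gene over 22.2% and 11.0% of their exons.

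The 10 largest ratios downward beside these also held several nucleolar proteins. NOP56 (AT1G56110), a core protein of the particles that guide methylation of ribosomal RNA, had 4.10, 4.50 and 5.30 FPKM in hair cells and 306, 254 and 233 CPM in epidermis, a log2 ratio of -4.68. NAP57, the pseudouridine synthase of the partner particle, had 3.26, 2.41 and 4.08 FPKM in hair cells and 234, 196 and 245 CPM in epidermis, a log2 ratio of -4.63. NUC-L1, nucleolin, had 10.9, 10.15 and 15.4 FPKM in hair cells and 558, 450 and 453 CPM in epidermis, a log2 ratio of -4.16. All 3 had hair cell libraries close together and apart from the epidermal ones, and being apart was required for a 4-fold count. AT4G12600 (an L7Ae family protein), AT5G27120 (a NOP56-like protein), AT3G03920 (a Gar1-type protein), PRH75 (an RNA helicase), ROC2 (a cyclophilin), NSN1 (a nucleostemin-like GTPase) and AT1G52930 (a Brix domain protein) had log2 ratios from -4.60 to -4.0.

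A list chosen after values were seen held 69 genes whose reference product names rRNA processing, ribosome biogenesis, the nucleolus or a protein of these. The words searched included fibrillarin, NOP56, NAP57, Brix and H/ACA, which also name genes described above, so its counts are a description only. Of the 69 genes, 35 (50.7%) were called lower and none higher, against 5.53% and 3.21% of all genes. Their median ratio was -1.79 on the log2 scale, against 0.00 over all genes, and -2.0 over the 64 with distinct reads. They summed to 478, 460 and 564 rescaled TPM in hair cells, and 3780, 3260 and 3320 rescaled TPM in epidermis. With any 1 library left out, 34 or 35 members were called lower. Cytosolic ribosomal proteins, taken as the 130 genes with eukaryotic-type names in the reference, were low in the same direction. They summed to 6530, 6500 and 9870 rescaled TPM in hair cells, and 45400, 34900 and 33000 rescaled TPM in epidermis. Their median ratio was -2.02, or -2.05 over the 114 with distinct reads, and 89 of them were 4-fold or more lower by the ratio before centring, on which 7.74% of all genes were. By rank, 20 (15.4%) were called lower and 2 higher, and their median percentile was 77.2 in hair cells and 94.8 in epidermis. The largest ratios of the list were those of AT4G12600, AT3G58660 and AT2G44860 at -4.60, -3.99 and -3.61, and that of AT1G29965 at 3.61. AT1G29965 has the same FPKM as AT1G29970. Members were matched by names that include protein families, so they need not all be parts of the ribosome. The L41 gene AT3G08520, with a ratio of 4.81 and repeated sequence, was not matched by this search. In sieved Arabidopsis hairs, another FPKM table of the series, 121 of the 130 were listed, at a median percentile of 89.6 among the shared genes listed there.

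Promoters of the lower genes were searched for the telo box AAACCCTA and for site II elements, TGGGCC and TGGGCT, on both strands, motifs known from promoters of ribosomal protein genes and chosen here after values were seen. The telo box stood in 19.4% of the 907 distinct genes called lower and in 1.56% of the 385 called higher, against 5.64% of all 15545 distinct genes. Site II elements stood in 41.2%, 16.9% and 27% of the same promoters. Outside the ribosomal protein and rRNA processing lists, 853 distinct genes called lower had telo boxes in 17.5% and site II elements in 39.9%. NOP56, printed above, held 5 matches. The matches are letters in a window and no site was measured.

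Genes of DNA replication, cell division and protein folding were also among those called lower. Of 15 cell division genes, 5 were called lower (33.3%, against 5.53% of all genes) and none higher, with a median ratio of -1.58, or -1.46 over the 9 with distinct reads. CYCB1;1, a mitotic cyclin, had 0.585, 3.11 and 2.15 FPKM in hair cells and 18.2, 16.2 and 15.2 CPM in epidermis, 27.6 points lower. CDKB2;1, a mitotic kinase, had 1.37, 4.77 and 4.45 FPKM in hair cells and 21.7, 20.4 and 23.1 CPM in epidermis, 29.2 points lower. In both genes library COBL9GFP_10021 was the lowest. All hair cell libraries lay below the epidermal ones in percentile, which the call rule requires. CDKB1;2, CYCB1;3 and CYCB1;2 were called lower too, at -31.3, -26.5 and -23.0 points, and CDKB1;2 and CYCB1;2 share sequence or exons with other genes. AUR2, an Aurora kinase, was the one member with a ratio above 0, at 0.28. Without library COBL9GFP_10021, 3 of the 15 were called lower, and without COBL9GFP_10022, 9 were. Lists chosen after values were seen held 10 genes named minichromosome maintenance (MCM), some of which form the replicative helicase, and 18 chaperonin genes. Of these, 6 of 10 and 12 of 18 were called lower, that is 60% and 66.7% against 5.53% of all genes. MCM2 had 0.619, 1.40 and 1.53 FPKM in hair cells and 42.4, 39.2 and 32.2 CPM in epidermis. The chaperonins summed to 249, 309 and 447 rescaled TPM in hair cells and 2150, 1760 and 1580 rescaled TPM in epidermis.

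**Figure D5:**
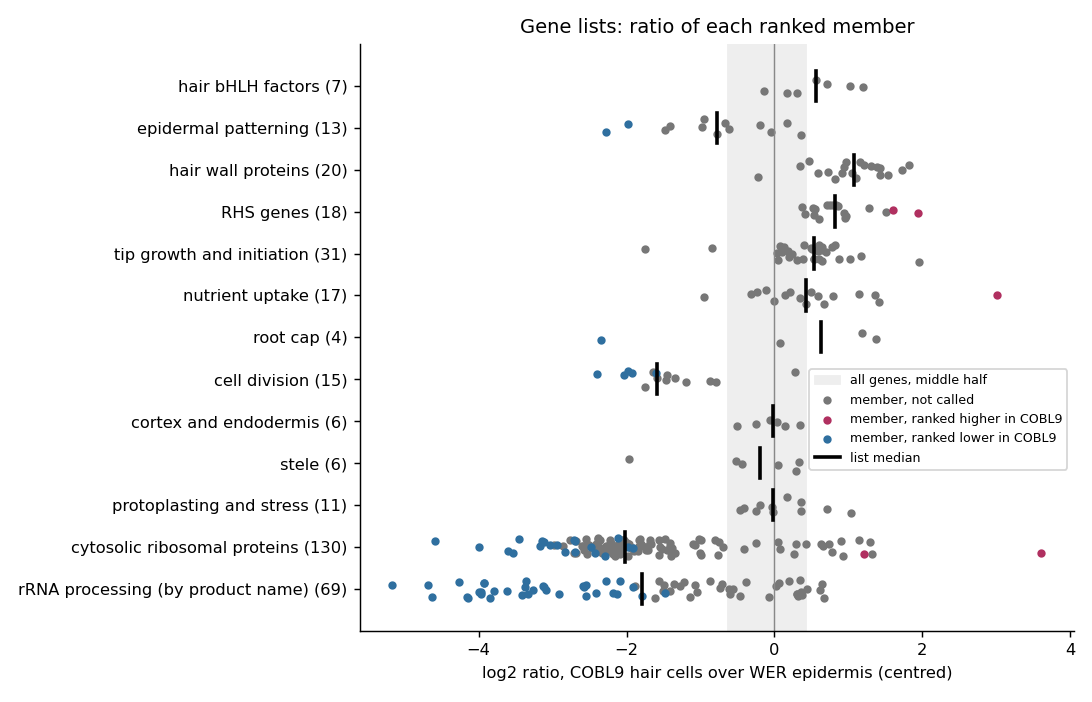
Log2 ratio of the length-scaled level in COBL9 hair cells over WER epidermis, centred on the median of all genes, for each ranked member (points, coloured where called) of 13 lists, with list medians as bars and the interquartile range of all genes shaded. Hair wall proteins (median 1.08) lie to the right and ribosomal proteins (median -2.02) to the left.

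Hair growth genes were high in both populations, and their ratios lay above the all-gene median with small rank differences. Of 25 listed hair wall proteins, 20 were ranked, none was called, and 19 had a ratio above 0, with a median of 1.08. The list holds COBL9, whose promoter defines the hair cell sort, with a log2 ratio of 0.82. Their median percentile was 97.9 in hair cells and 96.9 in epidermis. For comparison, the 1644 genes with a mean percentile above 90 had a median ratio of 0.45 and held no call in either direction. EXT10, an extensin, had 610, 446 and 1075 FPKM in hair cells and 368, 418 and 721 CPM in epidermis, a log2 ratio of 1.72. AGP3, an arabinogalactan protein, had 1548, 613 and 1322 FPKM in hair cells and 273, 255.7 and 531 CPM in epidermis, a log2 ratio of 1.54. XTH26, a xyloglucan-modifying enzyme, had 24.1, 39.4 and 125 FPKM in hair cells and 30.2, 16.3 and 16.8 CPM in epidermis, 21.9 points higher, but its libraries overlapped on the per-kb scale and it was not called. EXT6, another extensin, had a log2 ratio of 1.43, and LRX2, a leucine-rich repeat extensin, was the one member below 0, at -0.22. Leaving out any 1 library kept the median between 0.90 and 1.45, and 1 member was called higher without COBL9GFP_10021, WT_WERGFP_8955 or WT_WERGFP_9489.

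Of 19 RHS (root hair specific) genes, 18 were ranked, 2 were called higher (11.1%, against 3.21% of all genes) and all 18 had a ratio above 0. The list was drawn up in the field by a screen for the root hair element together with transcript levels in hairs, so neither its direction nor that element in its promoters is independent evidence. RHS1 (AT1G05990), an EF-hand calcium-binding protein, had 29.8, 10.4 and 16.3 FPKM in hair cells and 3.64, 2.85 and 7.73 CPM in epidermis, 30.1 points higher. RHS15 (AT4G25220) had 36.6, 23.7 and 73.1 FPKM in hair cells and 21.8, 21.7 and 22.3 CPM in epidermis, 28.8 points higher. Both had all hair cell libraries above all epidermal ones in percentile, which the call rule requires. RHS13 and RHS5 (a 14-3-3 protein) had log2 ratios of 1.52 and 1.28. The list median was 0.82, 0.46 without library COBL9GFP_10021 and 1.18 without epidermal library WT_WERGFP_9489. RHS7 is the same gene as PRP1 of the wall list.

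The core of the root hair element, searched on both strands as TG, then 3 or 4 of any base, then TCACG or GCACG, stood in the promoters of 9 of 18 RHS genes and 6 of 20 wall protein genes, and of 2 of 31 tip growth genes (6.45%). The RHS genes were screened in the field for this element, and EXPA7 and EXPA18 of the wall list are among the genes it was defined on, so their counts are a description only. It stood in 5.27% of all 17608 promoters, in 4.42% of the 385 distinct genes called higher and in 4.30% of the 907 called lower. COBL9, the reporter gene of the hair cell sort, is one of the 6 wall protein genes with a match. It held 2 overlapping matches, printed above in capitals, which begin 49 and 47 bases before the start, and RHS15 held 1. RHD6, RSL and LRL genes held none.

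The bHLH factors of hair growth were not called, and the sign of their median ratio depended on library COBL9GFP_10021. RHD6 (AT1G66470) had 125, 18.9 and 39.1 FPKM in hair cells and 74.3, 75.5 and 85.4 CPM in epidermis, at percentiles 87.0 and 87.3. RSL2, which promotes hair elongation, had 80.7, 9.34 and 18.3 FPKM in hair cells and 25.8, 22.2 and 54.5 CPM in epidermis, 5.96 points higher, and the difference was -12.98 points without COBL9GFP_10021. RSL4, which sets hair length, had 208, 56.7 and 96.8 FPKM in hair cells and 89.3, 79.4 and 130 CPM in epidermis. In all 3 genes library COBL9GFP_10021 was the highest hair cell library and the groups overlapped. LRL2 had the largest rank difference of the 7 ranked factors, with 64.5, 30.1 and 64.5 FPKM in hair cells and 36.1, 42.1 and 47.3 CPM in epidermis, 13.1 points higher. LRL1 and LRL3 had log2 ratios of 0.31 and 1.02, and RSL1 had one of -0.15. The median ratio of the 7 was 0.56, and -0.23 without library COBL9GFP_10021. It was 1.03 without COBL9GFP_10022, 0.87 without COBL9GFP_9521, 0.32 without WT_WERGFP_9483 and 0.93 without WT_WERGFP_9489.

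Of 13 ranked patterning genes, 2 were called lower (15.4%, against 5.53% of all genes), 11 had a ratio below 0, and the median was -0.78. Without library COBL9GFP_10021 the median was -1.30 and 3 were called lower, and without WT_WERGFP_8955 1 was. Beside WER, SCM, a receptor kinase that positions the cell fates, had 0.103, 0.131 and 0.070 FPKM in hair cells and 10.8, 10.3 and 10.4 CPM in epidermis, 23.8 points lower (a difference of -23.85). GL2, the homeodomain factor of non-hair fate, had 24.7, 7.27 and 9.62 FPKM in hair cells and 55.1, 56.8 and 87.3 CPM in epidermis, a difference of -10.57 points that was not called and was -21.8 points without library COBL9GFP_10021. MYB23, GL3, EGL3 and TTG2, which act with WER or below it, had log2 ratios of -0.78, -0.61, -1.41 and -0.95. CPC, the mobile repressor of non-hair fate, had 63.5, 30.3 and 30.4 FPKM in hair cells and 22.2, 22.0 and 30.9 CPM in epidermis, a log2 ratio of 0.36, the highest of the list. Its relatives TRY and ETC1 had ratios of -1.47 and -0.98 from low levels. TTG1, ZFP5 and JKD had ratios of 0.17, -0.04 and -0.19.

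Of 31 ranked tip growth genes none was called, 29 had a ratio above 0 and 2 below it, and the median was 0.53. Their median percentiles were 93.8 in hair cells and 91.9 in epidermis, and of the 1644 genes above percentile 90, with a median ratio of 0.45, 1292 had a ratio above 0. Without library COBL9GFP_10021, 21 ratios were above 0 and the median was 0.19, and without COBL9GFP_10022 the median was 0.80. Among the members above 0, ADF8 and ADF11, actin depolymerizing factors, had log2 ratios of 1.96 and 1.17. ADF8 had 512, 189 and 295 FPKM in hair cells and 96.5, 77.7 and 189 CPM in epidermis. MRH6 had a ratio of 1.02.

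Of 17 ranked nutrient uptake genes, 1 was called higher (5.88%, against 3.21% of all genes). It was AMT1;1, an ammonium transporter, but another gene overlaps 98.4% of its exons and its reads are not distinct. The median ratio was 0.42, and 0.26 without library COBL9GFP_10021, and 2 genes were called higher without that library, COBL9GFP_10022 or WT_WERGFP_9489. SULTR1;1, a sulfate transporter, had 17.6, 14.4 and 33.04 FPKM in hair cells and 15.8, 17.6 and 23.1 CPM in epidermis, a log2 ratio of 1.41. FRO2, the ferric reductase, had 2.79, 56.5 and 28.4 FPKM in hair cells and 33.3, 36.7 and 25.7 CPM in epidermis, and NRT3.1, a partner of nitrate transporters, had 29.1, 111 and 82.3 FPKM and 43.6, 34.4 and 33.5 CPM. Both were lowest in library COBL9GFP_10021 among hair cells, as the root cap genes were. Their ratios were 1.36 and 1.15, and neither was called.

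Markers of other cells were read the same way. FEZ, a factor of root cap stem cells, had 0.594, 0.832 and 0.858 FPKM in hair cells and 10.15, 12.2 and 9.37 CPM in epidermis and was called lower, at -30.28 points. SMB, of the maturing cap, had 2.96, 45.5 and 24.7 FPKM in hair cells and 37.1, 46.6 and 51.7 CPM in epidermis, at percentile 72.4 in both. BRN1 and BRN2 had log2 ratios of 1.18 and 1.38. The median of the 4 was 0.63, 1.17 without library COBL9GFP_10021 and -0.15 without COBL9GFP_10022. None of the 6 cortex and endodermis genes and none of the 6 stele genes ranked here was called, and their sums were at most 29.0 and 148 rescaled TPM in any library. With 1 library left out, the cortex and endodermis median, -0.01 with all, lay between -0.53 and 0.41, the stele median, -0.20 with all, lay between -0.26 and 0.05, and 1 stele gene was called lower without WT_WERGFP_9489. Among them, SCR, MYB36 and CASP2 had ratios of -0.51, 0.35 and -0.25. SUC2, PHB, CESA4 and AHK4 had ratios of -1.96, -0.52, -0.44 and 0.34. None of 11 stress genes was called, with a median ratio of -0.01, between -0.25 and 0.30 with 1 library left out, and TCH2, JAZ1, ERF5 and WRKY40 had ratios of 1.04, 0.72, -0.46 and -0.41. None of 6 photosynthesis genes stood in the epidermal table.

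Small heat shock proteins and SAUR (small auxin up RNA) genes, both listed after values were seen, were also counted. Of 23 genes with an HSP20-like product, 2 (8.70%, against 3.21% of all genes) were called higher and none lower, and 10 were called higher without library COBL9GFP_10021 or without library WT_WERGFP_9489. HSP17.6A, a small heat shock protein, had 7.98, 191 and 60.8 FPKM in hair cells and 3.83, 4.62 and 11.7 CPM in epidermis, 47.6 points higher, and was not called. By the ratio before centring, 2 of the 23 were 4-fold or more lower and none was 4-fold higher, against 7.74% and 0.54% of all genes. Libraries did not overlap in percentile for 5 of the 23 upward and 5 downward, against 23.8% and 23.9% of all genes. The 23 summed to 373, 1680 and 829 rescaled TPM in hair cells and 605, 555 and 691 rescaled TPM in epidermis. Of 21 SAUR-like genes, 5 (23.8%, against 3.21% of all genes) were called higher and none lower, with 17 ratios above 0 and a median of 0.52. Without library COBL9GFP_10021, 5 were called higher, 12 ratios were above 0 and the median was 0.32. They summed to 1050, 643 and 625 rescaled TPM in hair cells and 522, 509 and 579 rescaled TPM in epidermis, with every hair cell library above every epidermal one.

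Highest in mean FPKM among the 17608 ranked genes were AT1G52070 (a mannose-binding lectin), AT5G54370 (a late embryogenesis abundant protein) and AT1G07590. PYK10 (a beta-glucosidase) and AGP2 (an arabinogalactan protein) came next. The FPKM of AT1G07590 equal those of AT1G07600 and give no level of one gene. Genes that stand only in the hair cell table were not ranked. AT1G52070 had 792, 14470 and 8325 FPKM in hair cells and 3518, 3697 and 2892 CPM in epidermis. AT5G54370 had 1049, 12685 and 6960 FPKM in hair cells and 4769, 3462 and 2276 CPM in epidermis. Both were lowest in library COBL9GFP_10021 and highest in COBL9GFP_10022, in the order of BRN1 and BRN2. By CPM as deposited, not scaled by length, the ranked genes highest in epidermis were AT3G28550 and AT1G23720 (both extensin-like), PYK10, AT5G54370 and JAL34 (a lectin). Each of these 5 ranked above percentile 99 in both populations.

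The authors' deposited table of rhd6 against the same wild-type libraries gives a further value for these genes, and the comparisons share those epidermal libraries. At an FDR below 0.05 the authors' deposited table has 4.96% of the ranked genes lower in rhd6 and 1.71% higher. Of the 566 genes called higher in hair cells, 12.7% were lower in rhd6 and 3.18% higher. Among genes with distinct reads, 14.3% of the 385 called higher were lower in rhd6, against 4.99% of all 15545. The genes named next were picked and do not stand for the called genes. In the authors' deposited table the log2 fold change in rhd6 was -3.63 for COBL9, -5.05 for RHS1, -3.02 for RHS15 and -3.55 for AT5G26080. The authors' FDR for these genes were 4.59e-08, 2.13e-12, 2.82e-06 and 5.48e-05. For WER, SKS6, FIB2 and NOP56 the authors' deposited table gives 0.51, 0.24, 0.36 and 0.54, at the authors' FDR of 0.495, 0.81, 0.702 and 0.554. For CLE14, UGE3 and SAP10 the authors' deposited table gives 0.21, 0.35 and 0.52, at the authors' FDR of 0.891, 0.875 and 0.614.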

How the data were processed

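Members and gene lists were chosen with earlier results of these data known. Raw data passed CASAVA 1.8.2, TopHat2 2.0.3 or 2.0.9, HTSeq 0.6.1, edgeR and Cufflinks, per the submitters' processing notes, which give no roles, and the annotation was TAIR10, per the labels. The FPKM values of COBL9 hair cells and of sieved hairs were used as deposited by the authors. The WER signal values are normalized CPM deposited by the authors, and 100% of them were whole multiples of 1 read within 0.01. The authors' deposited log2 fold changes and FDR for rhd6 come from the same table.

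Transcript lengths, products and promoters came from RefSeq TAIR10.1, matched by locus tag. Percentiles, ratios with a pseudocount of 1 rescaled TPM, and calls were computed with Python 3.11.15, numpy 2.4.6, pandas 2.3.3 and scipy 1.17.1, and figures were drawn with matplotlib 3.10.9. The ranking was run on simulated data with planted changes, where both groups were drawn from the epidermal means. Those data held no shared reads and no separately processed tables, so they cannot speak to either. Since the tables were normalized separately, no p-value was computed between them. The labels call the libraries biological replicates. Named were the 12 largest rank differences and 10 largest ratios each way with a group mean of at least 5, all hair bHLH and patterning genes, the 4 largest ratios of each other list, and the 5 highest genes per population. A few genes that this rule names are not reported here. Chosen after values were seen were the rRNA processing, MCM, chaperonin, HSP20 and SAUR lists (by product name), the filter for distinct reads, its 12 largest upward differences, the telo box and site II search, and LRX2, AUR2, CYCB1;2, MCM2 and HSP17.6A as named genes. Alternatives tried were other scales, thresholds, filters and each library left out.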

Additional observations from a re-analysis of the deposited data

How the results depend on the processing

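The counts of genes ranked higher and lower, 566 and 974, moved with the rule. On CPM as deposited alone they were 1485 and 1714, at 10 points 1610 and 2209, and at 30 points 184 and 462. By a 4-fold ratio the counts were 95 and 1362, with a pseudocount of 0.1 they were 120 and 2336, and after centring, an alternative added after seeing the data, 150 and 890. With percentiles over every gene of each table they were 7939 and 38, where the median gene stood 21.98 points higher in hair cells, since the hair cell table lists more genes. Under that setting SCM, CDKB1;2, CYCB1;3, CYCB1;1, CDKB2;1 and FEZ stood 11.05, 7.07, 10.22, 6.97, 1.21 and 8.04 points higher in hair cells and so changed sign. With 1 library left out, 532 to 815 genes ranked higher and 907 to 1083 lower. Per kb alone, group medians, a minimum mean of 1, shortest transcripts and genes with distinct reads ranked anew (added after seeing the data) stayed within 1.5 times, and no gene was called in the other direction under any of these settings. No organelle-encoded gene was ranked. No paired analysis was possible because the columns carry library numbers, not the replicate numbers of the labels, and no test was made. The depth of the hair cell libraries is unknown, and genes with few reads in epidermis are ranked with the precision of those reads only.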
